A study of Mus musculus with 59 samples.

Results

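The loci described here are those of Nkx2-2 and of 3 other ventral Nkx genes, Nkx2-1, Nkx2-9 and Nkx6-1, in mice that carry a knocked-in K27M allele of the histone gene H3f3a. Members were all H3K27me3 islands and all H3K27ac and H3K4me3 peaks that overlap 3 windows of build mm9. These are a 40 kb window for Nkx2-2 (chr2:146995000-147035000), a 140 kb window that holds Nkx2-1 and Nkx2-9 together (chr12:57600000-57740000) and a 50 kb window for Nkx6-1 (chr5:102065000-102115000). In all 36 lists they held 323 of 1107554 intervals, of which 172 were H3K27me3 islands, 95 were H3K27ac peaks and 56 were H3K4me3 peaks. The Nkx2-2 window held 140 of them, the Nkx2-1 and Nkx2-9 window 112 and the Nkx6-1 window 71. Nkx2-2 was chosen by measured values, namely the H3K27me3 reads of hindbrain neurospheres, where its region had the highest K27M over WT fold of 3334 regions. That contrast is therefore given below as a description, with no test, for every window.

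The Nkx genes encode homeodomain transcription factors that divide the ventral neural tube into progenitor domains in response to Sonic hedgehog from the floor plate. Nkx2-2 marks the p3 progenitors next to the floor plate and is later needed for oligodendrocyte maturation. Nkx2-9 is its close relative with an overlapping early ventral domain, Nkx6-1 is used in motor neuron and ventral interneuron progenitors, and Nkx2-1 patterns the ventral forebrain and hypothalamus. Genes of this kind are classic targets of Polycomb repressive complex 2, which methylates lysine 27 of histone H3 (H3K27me3) over broad domains where the gene is silent. The same lysine is acetylated (H3K27ac) at active regulatory elements, and H3K4me3 lies at gene starts. The K27M histone inhibits that complex in most of the genome.

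Brainstem tumours came from mice labelled Nestin-creERT2, LSL-PDGFRαV544ins and Trp53flox/flox, so every tumour, WT controls included, shared mutant PDGFRα and floxed Trp53. The age of the animals is not given in the labels used here. Tumours differed in the second H3f3a allele, H3f3aLSL-K27M-Tag/+ in 6 tumours (1 to 6, of which 4 male and 2 female) or H3f3aLSL-WT-Tag/+ in 5 (7 to 11, of which 1 male and 4 female), called K27M and WT below. Nestin-creERT2 acts in Nestin-expressing cells, which are neural progenitors and some glia. Neurospheres, floating cultures of neural precursor cells, came from e15.5 brains labelled Nestin-cre with the same K27M or WT allele, with neither PDGFRα nor Trp53 in the genotype. There were 6 hindbrain libraries, 3 of each genotype, and 3 of forebrain, all K27M. No forebrain WT library was analysed here. H3K27me3 was profiled in every group, H3K27ac in the 11 tumours, and H3K4me3 in K27M tumours 2 and 6 and WT tumours 7, 9 and 10. Whether libraries of a group stem from different mice or litters is not said in the labels, and each p-value reflects only how these libraries varied. In bulk chromatin, different cells and different alleles of a sample cannot be told apart.

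Island reads per H3K27me3 list ran from 3208588 to 16323822, and peaks per list from 36284 to 61251 for H3K27ac and from 28480 to 34291 for H3K4me3. Covered length is the length of a window under the islands or peaks of a list, in kb. Levels are given as rpm, the whole reads of the islands that overlap a window per 1e6 island reads of that list. CPM is the same for a region merged over libraries, scaled to the reads of the regions compared. This unit moves with how much of the genome was called. K27M tumours had 188.8 Mb and WT tumours 222.4 Mb under islands on average, hindbrain K27M neurospheres 91.7 Mb and hindbrain WT neurospheres 205.5 Mb.

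The 250 bases upstream of each gene's start are printed to show their CpG content. Polycomb repressive complex 2 is known to be recruited to CpG-rich promoters. All 4 genes matched a promoter entry of RefSeq, build GRCm38.p6, and all 4 lie on the minus strand. In RefSeq's order of coding genes, Nkx2-2 stands between Nkx2-4 and Pax1, beside its antisense gene Nkx2-2os. Nkx2-1 and Nkx2-9 stand next to each other between Mbip and Pax9, and Nkx6-1 stands next to Gpat3. Coordinates of that build cannot be set against the mm9 positions of the islands. Each sequence runs 5′ to 3′, with CG dinucleotides in capitals.
Nkx2-2, upstream, chr2:147186403-147186652: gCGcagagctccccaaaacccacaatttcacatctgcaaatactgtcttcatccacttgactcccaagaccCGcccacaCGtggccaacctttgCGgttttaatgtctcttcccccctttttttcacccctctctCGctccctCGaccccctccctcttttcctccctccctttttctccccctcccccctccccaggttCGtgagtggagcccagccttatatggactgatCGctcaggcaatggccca
Nkx2-1, upstream, chr12:56536909-56537158: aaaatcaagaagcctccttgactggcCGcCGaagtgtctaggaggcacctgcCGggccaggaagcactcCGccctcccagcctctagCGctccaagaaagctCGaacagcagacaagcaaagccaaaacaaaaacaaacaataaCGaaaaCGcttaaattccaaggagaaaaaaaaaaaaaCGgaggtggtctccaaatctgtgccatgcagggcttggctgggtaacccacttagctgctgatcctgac
Nkx2-9, upstream, chr12:56613285-56613534: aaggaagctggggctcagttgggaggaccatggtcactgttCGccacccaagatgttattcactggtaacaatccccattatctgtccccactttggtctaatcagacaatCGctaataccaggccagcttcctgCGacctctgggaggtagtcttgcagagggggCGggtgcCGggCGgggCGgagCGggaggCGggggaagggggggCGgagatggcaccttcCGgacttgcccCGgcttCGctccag
Nkx6-1, upstream, chr5:101664712-101664961: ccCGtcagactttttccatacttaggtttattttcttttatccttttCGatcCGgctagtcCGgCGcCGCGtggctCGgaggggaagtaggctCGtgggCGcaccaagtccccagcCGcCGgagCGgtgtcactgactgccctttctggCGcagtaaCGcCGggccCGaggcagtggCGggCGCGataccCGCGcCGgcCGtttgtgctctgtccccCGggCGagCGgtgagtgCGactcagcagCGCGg
Nkx6-1 held 30 CG dinucleotides, Nkx2-9 held 13, Nkx2-1 held 9 and Nkx2-2 held 8, against a median of 6 over 32851 promoters of the same length. As many as in Nkx6-1 were found in 5.94% of all promoters, as many as in Nkx2-9 in 31.5%, as in Nkx2-1 in 40.3% and as in Nkx2-2 in 43.0%. The GLI motif GACCACCCA was in none of the 4 stretches on either strand and in 0.225% of all promoters of this length. That says only that these letters are not in this window.

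In the Nkx2-2 window, H3K27me3 islands covered a longer stretch in K27M tumours than in WT tumours. Islands covered 26.6 kb at the lowest, 30.0 kb at the median and 37.2 kb at the highest in the 6 K27M tumours, and 16.6, 0, 11, 22.0 and 14.4 kb in WT tumours 7 to 11. Every K27M tumour lay above every WT tumour, and WT tumour 8 had no island in the window. Means were 31.3 kb ± 4.37 (SD, n = 6) in K27M and 12.8 kb ± 8.20 (SD, n = 5) in WT, a difference of 18.5 kb (SE 4.08). A two-sided exact permutation test of this difference gave p = 0.00216, the smallest that 462 arrangements allow. After Benjamini-Hochberg adjustment over 28544 tiles and windows of the genome, the permutation p was 0.401, so the difference does not pass that correction. Its unadjusted p was already the smallest possible, so no larger difference could have passed either, and the correction cannot decide here. Of 28541 tiles of 50 kb, 2079 had an unadjusted p under 0.05 and 0 had an adjusted one. K27M was higher at an unadjusted p under 0.05 in 2.71% of tiles and lower in 4.58%, and in 0.617% of tiles every K27M tumour lay above every WT tumour. Sex was unequal between the genotypes. With genotype permuted within sex the exact p was 0.0133. Females alone differed by 18.7 kb (2 K27M against 4 WT, exact p = 0.0667, the smallest possible) and males by 20.0 kb (4 against 1, exact p = 0.2, the smallest possible).

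Single islands were also longer in the K27M tumours. In each of the 6 K27M tumours 1 island spanned the stretch from 8.40 to 29.6 kb after the window start without a break, and in the WT tumours the longest island was 7.60, 8.80, 18.2 and 11.6 kb in numbers 7, 9, 10 and 11. Reads in islands of the window came to 181.9 at the lowest, 254.0 at the median and 340.6 rpm at the highest in K27M tumours. WT tumours 7 to 11 had 55.6, 0, 47.1, 65.8 and 119.1 rpm. The means were 250.7 ± 55.7 (n = 6) and 57.5 ± 42.7 (n = 5), and per kb of island the K27M tumours held 57.7 ± 15.6 reads and the WT tumours 24.0 ± 15.9. In rpm the groups did not overlap, and how often this holds at other places was not computed. Reads per kb are not scaled to the island reads of a list. In that unit WT tumour 10 (44.4), with 16323822 island reads, lay above the lowest K27M tumour, number 5 (41.8), with 4905241. With autosomal island reads alone as the scale of rpm the groups overlapped, with WT tumour 11 at 203.3 rpm and K27M tumour 3 at 182.8. None of these was tested. Island reads of the whole lists ranged from 4905241 to 14433881 in K27M tumours and from 3208588 to 16323822 in WT tumours, with 5307008 in WT tumour 8, and their part in the difference was not tested.

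**Figure D1:**
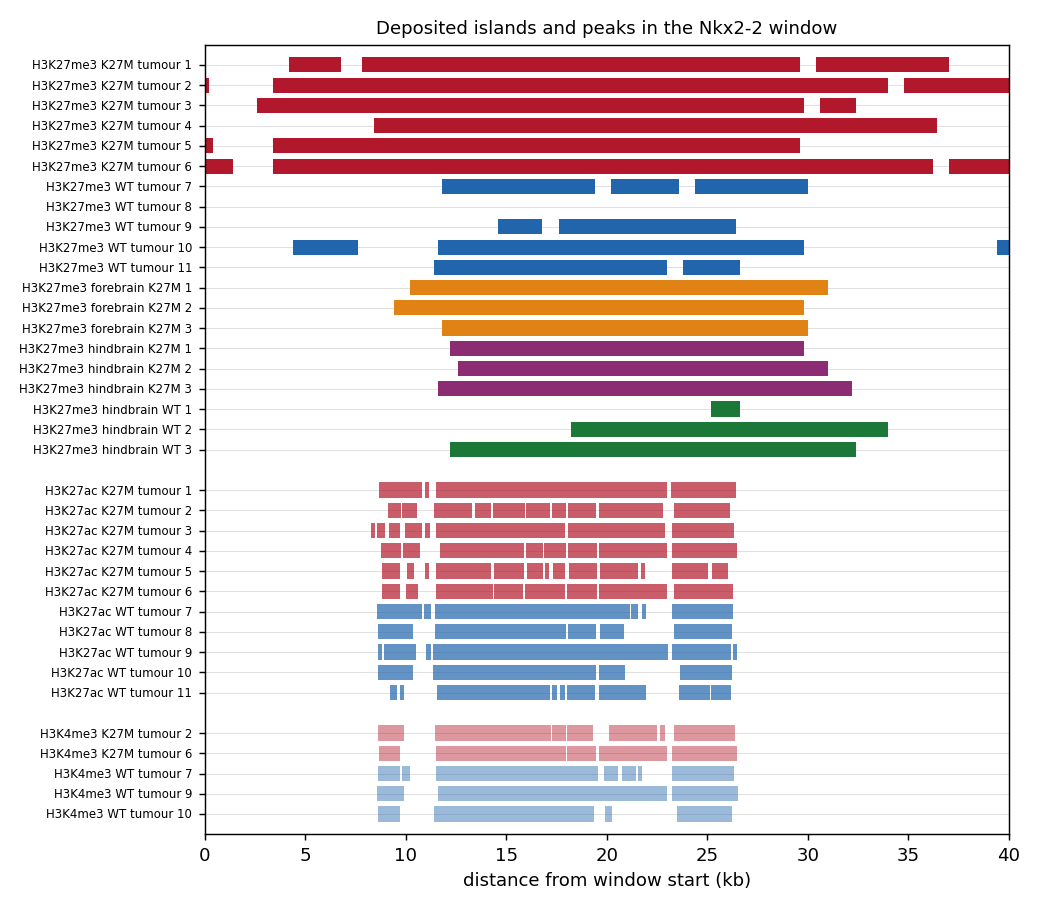
Islands (H3K27me3) and peaks (H3K27ac, H3K4me3) of each library in the 40 kb Nkx2-2 window, as distance from the window start in kb; 1 row per library, coloured by group. Islands of the 6 K27M tumours run through the middle of the window without a break, WT tumour 8 has none, and H3K27ac and H3K4me3 occupy the same place in all tumours.

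Read counts could not be compared over regions called in all 11 tumours, since WT tumour 8 has no island here. Over 24129 regions with an island in at least 3 tumours, and 0 reads where none was called, the region from 146997601 to 147040200 on chromosome 2 had a log2 fold of 2.15 (SE 1.06). Its adjusted p was 0.540 with edgeR's quasi-likelihood test, and 0.365% of those regions were called higher in K27M. A further region of 7.4 kb at the window's first edge (146989001 to 146996400) held 15.0 to 32.1 CPM in 5 of 6 K27M tumours and had no island in K27M tumour 4 or in any WT tumour. It entered the regions compared through K27M tumours alone, the group where it is higher, so no p is given for it. With WT tumour 8 left out before regions were merged, the log2 fold of the larger region was 1.63 (SE 0.37). CPM values over regions common to those 10 tumours ran from 316.7 to 613.5 in K27M, and were 103.9, 73.7, 133.8 and 256.6 in WT tumours 7, 9, 10 and 11. That tumour was left out for its own value at this place, so no p is given for this fit.

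H3K27ac did not separate the genotypes in the Nkx2-2 window. Peaks covered 13.3 kb at the lowest, 15.8 kb at the median and 17.1 kb at the highest in K27M tumours, and 15.9, 13.7, 16.9, 13.8 and 13.0 kb in WT tumours 7 to 11. The groups overlapped. The difference was 0.92 kb (SE 0.92), with an exact permutation p of 0.320, and 0.938 after adjustment over 25081 tiles and windows. Over 25078 tiles, K27M was higher in 1.96% and lower in 2.31% at an unadjusted permutation p under 0.05. All 11 tumours had acetylation within the same 3 stretches: from 8.56 to 10.8 kb after the window start, from 11.3 to 23.0 kb and from 23.2 to 26.5 kb. By width in the whole list of each tumour, the widest single peak ranked 7, 810, 43, 148, 551 and 436 in K27M tumours 1 to 6. In WT tumours 7 to 11 it ranked 35, 122, 7, 92 and 71. It was 5.24 kb ± 3.33 wide in K27M and 8.33 kb ± 2.42 in WT, a difference that was not tested. H3K4me3 covered the same stretch, 14.7 and 15.6 kb in K27M tumours 2 and 6 and 14.3, 16.0 and 12.2 kb in WT tumours 7, 9 and 10. With 2 against 3 tumours no test was made.

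**Figure D2:**
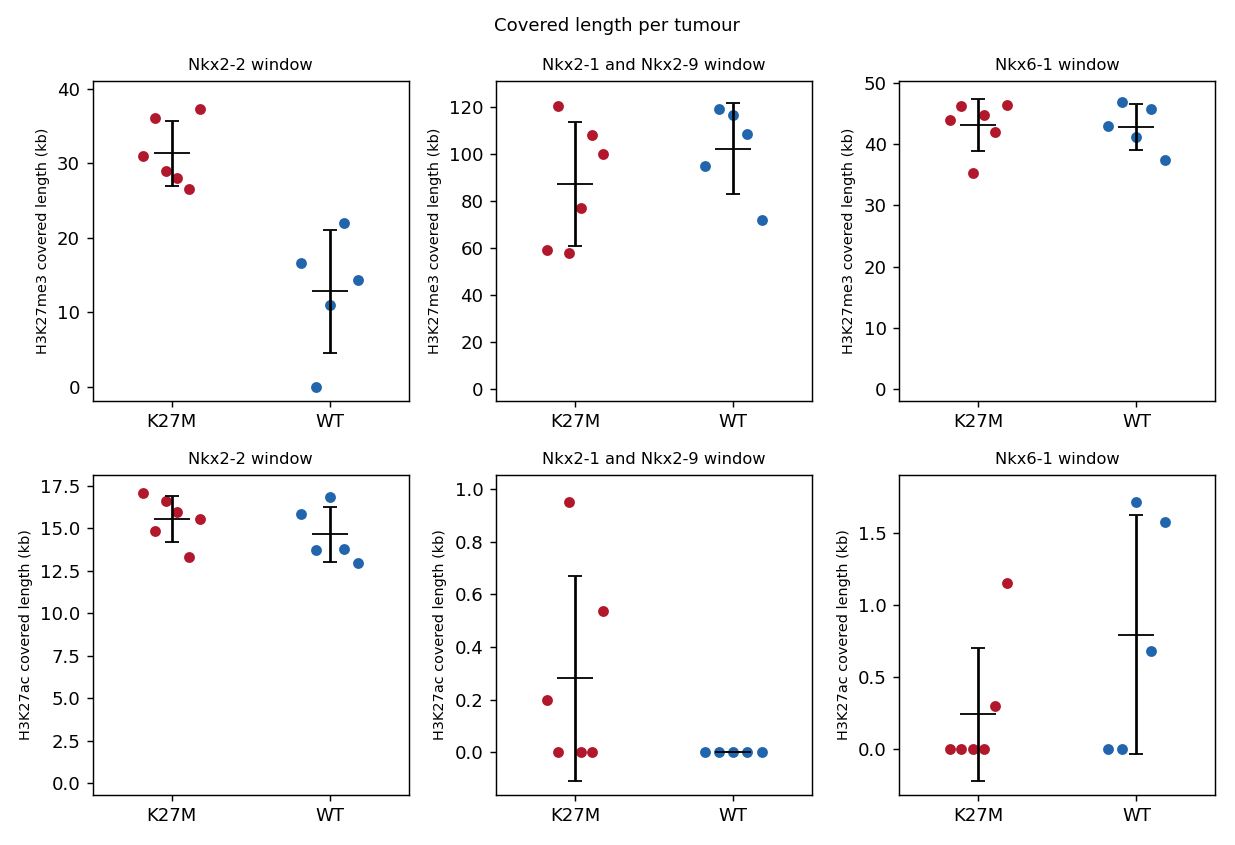
Length of each window under H3K27me3 islands (top) and H3K27ac peaks (bottom), in kb, per tumour; points are tumours, bars the mean and SD of 6 K27M and 5 WT tumours. Only H3K27me3 in the Nkx2-2 window shows groups that do not overlap, 26.6 to 37.2 kb against 0 to 22.0 kb.

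All of the H3K27ac at Nkx2-2 lay under an H3K27me3 island of the same tumour in 6 of 6 K27M tumours. In WT tumours 7 to 11 the share was 71.4, 0, 63.3, 85.2 and 93.9%, with a mean of 62.8% ± 37.0. For H3K4me3 it was 100% in both K27M tumours and 78.2, 67.4 and 89.2% in WT tumours 7, 9 and 10. Over the whole lists, 14.2% ± 4.50 of H3K27ac length lay under islands in K27M tumours and 6.85% ± 3.01 in WT tumours, with ranges of 9.03 to 22.0% and 2.78 to 11.1%, so the mean share was higher in K27M there too. The shares at Nkx2-2 rest on the same islands whose lengths were tested above, but also on where those islands lie. No share was tested, neither there nor over the whole lists. Both marks on the same chromatin, and each mark in different cells of a bulk tumour, cannot be told apart.

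**Figure D3:**
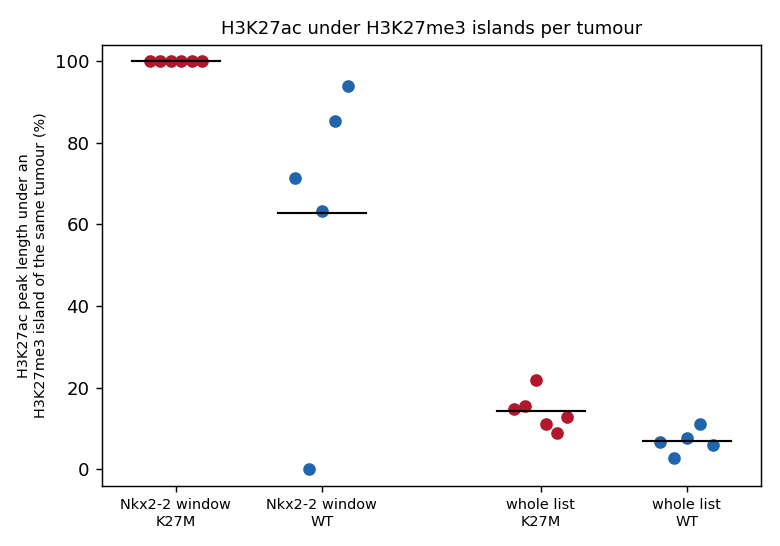
Share of H3K27ac peak length under an H3K27me3 island of the same tumour, in percent, in the Nkx2-2 window and over the whole list; points are tumours, lines are means. All 6 K27M tumours are at 100% in the Nkx2-2 window and the WT tumours range from 0 to 93.9%.

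In hindbrain neurospheres the same window showed the contrast that chose the gene. K27M libraries held 5408, 5084 and 5624 island reads and WT libraries 53, 410 and 1027, in experiments 1, 2 and 3. This was 764.0 ± 73.4 rpm in K27M and 53.0 ± 54.2 in WT (n = 3 each). Every K27M library lay above every WT library, and the WT libraries ranged widely among themselves. Over regions called in all 6 libraries the log2 fold was 4.58, and 25.9% of the 3334 regions were called higher in K27M and 28.4% lower, while K27M libraries were all above WT in 30.8% and all below in 34.6%. Without WT replicate 3, the male library, the log2 fold was 5.48, and with no composition factors 3.63. Covered length overlapped between genotypes, 17.6, 18.4 and 20.6 kb in K27M and 1.40, 15.8 and 20.2 kb in WT. The mean difference was 6.40 kb, and it was 0.87 kb without WT replicate 1 and 10.3 kb without WT replicate 3. The island of WT replicate 3 was thus as long as those of K27M, at 50.8 reads per kb against 273.0 to 307.3.

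Forebrain K27M neurospheres carried Nkx2-2 islands of a like place and length, 20.8, 20.4 and 18.2 kb. They held 4271, 3678 and 3054 reads, or 636.7 rpm ± 115.4 (n = 3). Against hindbrain K27M the log2 fold was -0.22 over regions called in all 6 libraries, and the CPM overlapped (539.3 to 804.3 in forebrain, 726.2 to 919.4 in hindbrain). No p is given, since the hindbrain libraries took part in choosing the gene.

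In the Nkx2-1 and Nkx2-9 window, the 2 neighbouring genes lay in a chain of islands with a break from 79.0 to 85.6 kb after the window start, where none of the 20 lists had an island. Every library of every group had H3K27me3 on both sides of that break. Covered length was 57.8 kb at the lowest, 88.7 kb at the median and 120.6 kb at the highest in K27M tumours, and 94.8, 119.2, 116.8, 108.6 and 72.0 kb in WT tumours 7 to 11. The groups overlapped, and the difference of -15.1 kb (SE 13.8) had an exact permutation p of 0.314 and an adjusted p of 0.800. Mean levels were 1886 rpm ± 392 in K27M and 1058 rpm ± 434 in WT, with ranges of 1484 to 2619 and 724.0 to 1662 that overlap. These count the whole reads of islands that reach past the window. With reads scaled by the share of each island inside the window, K27M tumours had 1473 to 2602 rpm and WT tumours 695.4 to 1139. Those ranges do not overlap, and the difference was not tested. How often this holds at other places was not computed. The first 80 kb of the window held 1606 ± 365 rpm in K27M tumours and 779.9 ± 332.2 in WT, and the last 60 kb 279.5 ± 110.6 and 277.7 ± 122.9.

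Over 3067 regions called in all 11 tumours, 4 overlapped the windows of Nkx2-1, Nkx2-9 and Nkx6-1, 3 of them were higher in K27M at an adjusted p under 0.05 and 0 were lower. Over all these regions 7.11% were called higher and 4.66% lower, with a median log2 fold of -0.10. The region from 57525801 to 57679000 on chromosome 12, which holds the first side of the chain and reaches beyond the window, had 2757 CPM at the lowest, 3150 at the median and 4095 at the highest in K27M tumours. WT tumours 7 to 11 had 1202, 2616, 1945, 1608 and 1571. All K27M tumours lay above all WT tumours, as they did in 5.74% of all regions. The log2 fold was 0.87 (SE 0.21), with an adjusted p of 0.0187. The region from 57685601 to 57831600 had a log2 fold of 0.94 (SE 0.22, adjusted p = 0.0156), with 2175 to 3454 CPM in K27M and 1109 to 2193 in WT, which overlap by 1 tumour. It extends far past the window's end, and inside the window the means were 279.5 and 277.7 rpm, as given above. Over regions with an island in at least 3 tumours, the adjusted p was 0.0333 for the first and 0.0604 for the second, and with DESeq2 over those regions 1.00 for both. With no composition factors the median log2 fold of all regions was -0.29, with 158 regions higher and 300 lower, and the 2 regions had log2 folds of 0.66 and 0.73 (adjusted p = 0.0415 and 0.0298).

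In this window H3K27ac was nearly absent and H3K4me3 was confined to narrow peaks. H3K27ac was found in 0 of 5 WT tumours and in K27M tumours 1, 3 and 6, with 0.2, 0.95 and 0.538 kb, all of it between 137.7 and 138.9 kb after the window start. The difference of 0.28 kb (SE 0.16) had an exact permutation p of 0.182. H3K4me3 formed narrow peaks between 112.6 and 114.3 kb and between 137.7 and 138.5 kb in all 5 tumours. WT tumours 7 and 10 alone had further small ones between 34.1 and 42.2 kb. Of the H3K4me3 length, 100 and 95.4% lay under islands in K27M tumours 2 and 6 and 73.4, 100 and 100% in WT tumours 7, 9 and 10.

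**Figure D4:**
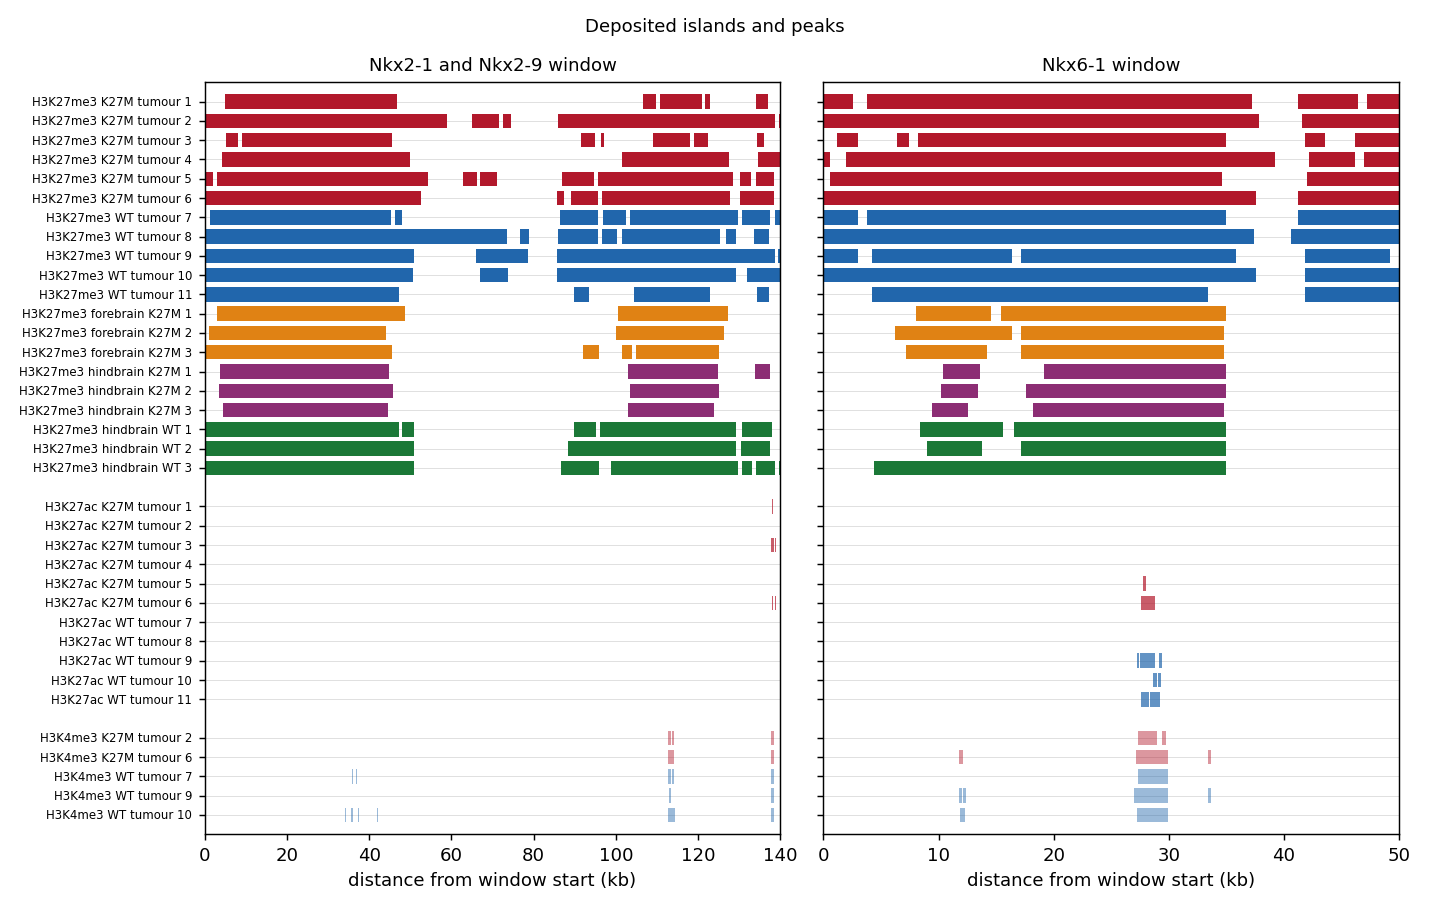
Islands and peaks of each library in the Nkx2-1 and Nkx2-9 window (left, 140 kb) and the Nkx6-1 window (right, 50 kb), as distance from the window start in kb; rows and colours as in the map of the Nkx2-2 window. H3K27me3 is present in all 20 libraries, H3K27ac only as short peaks in some tumours, and H3K4me3 as narrow peaks in all 5 tumours.

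In hindbrain neurospheres the islands of this window were shorter in K27M, 66.4, 64.2 and 61.0 kb against 95.6, 98.6 and 98.4 kb in WT. K27M libraries all lay below WT libraries, as they did in 48.2% of 16110 tiles, and above them in 0.348%. Levels in rpm went the other way, 2928 ± 417 in K27M and 1583 ± 292 in WT. Per kb of island the K27M libraries held 321.2 ± 4.81 reads and the WT libraries 144.2 ± 13.7. The first side of the chain (57589601 to 57651000) had a log2 fold of 1.67 and the second (57686601 to 57729600) of 0.83. With no composition factors these were 0.75 and -0.09, the median of all regions moved from -0.11 to -1.02, and the regions called went from 863 higher and 946 lower to 319 higher and 2129 lower. The direction at the second side, nearer Nkx2-9 by gene order, therefore flips with the scaling, and relative to the median of all regions it was above in both. This contrast, too, has no test here.

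Forebrain K27M neurospheres had 71.3 kb ± 1.63 under islands in this window and 3741 ± 151 rpm, the highest level of all groups. Of 3 regions outside the Nkx2-2 window, 2 differed between forebrain and hindbrain K27M at an adjusted p under 0.05, both higher in forebrain, where 31.4% of 3363 regions were called in either direction and 15.9% were called lower. Forebrain libraries lay wholly above hindbrain libraries in 25.7% of regions and wholly below in 24.2%. On the first side (57600201 to 57648800) the log2 fold was 0.34 (SE 0.14, adjusted p = 0.0940), and with experiment as a block 0.36 (adjusted p = 0.0321). Its CPM were 3344, 3479 and 3185 in forebrain and 2478, 3183 and 2234 in hindbrain. With each library left out in turn, the adjusted p ranged from 0.00410 (without hindbrain replicate 2) to 0.254 (without hindbrain replicate 1) and the log2 fold from 0.25 to 0.48, and only the first of these passed the threshold. On the second side (57700001 to 57727200) forebrain held 761.0, 756.0 and 602.5 CPM and hindbrain 420.7, 549.8 and 391.8. The log2 fold was 0.64 (SE 0.16, adjusted p = 0.0164), and the adjusted p was 0.0649, 0.0609 and 0.0553 without forebrain replicate 1, forebrain replicate 2 or hindbrain replicate 1.

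In the Nkx6-1 window the covered length of tumours did not differ between genotypes beyond its spread. It was 35.2 kb at the lowest, 44.4 kb at the median and 46.4 kb at the highest in K27M, and 43.0, 46.8, 41.2, 45.8 and 37.4 kb in WT tumours 7 to 11. The difference was 0.26 kb (SE 2.40) with an exact permutation p of 0.907. Levels were 573.3 at the lowest, 894.1 at the median and 1711 rpm at the highest in K27M, and 463.0, 797.8, 354.4, 403.1 and 500.5 rpm in WT tumours 7 to 11. These ranges overlap, with means of 954.1 and 503.8 rpm. With reads scaled by the share of each island inside the window, K27M tumours had 572.4 to 1611 rpm and WT tumours 249.3 to 523.6. Those ranges do not overlap, and the difference was not tested. How often this holds at other places was not computed. The region from 102048401 to 102104200 on chromosome 5, which holds most of the window, had a log2 fold of 0.98 (SE 0.23, adjusted p = 0.0178). Its CPM were 1343 to 2300 in K27M and 515 to 1132 in WT. All K27M tumours lay above all WT tumours, as they did in 5.74% of all regions. Over regions with an island in at least 3 tumours its adjusted p was 0.0511, and with DESeq2 there 1.00. The adjoining region from 102105601 to 102162400 had the opposite sign, with a log2 fold of -0.85 (SE 0.29, adjusted p = 0.0743), and its adjusted p was 0.0452 without WT replicate 10, 0.0272 with DESeq2 and 0.0316 with no composition factors.

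H3K27ac at Nkx6-1 was short and patchy, 0.297 and 1.15 kb in K27M tumours 5 and 6 and 1.72, 0.677 and 1.58 kb in WT tumours 9, 10 and 11, with none in the other tumours. The difference of -0.55 kb (SE 0.42) had an exact permutation p of 0.184. These peaks sat between 27.3 and 29.4 kb after the window start, where all 5 tumours profiled also had H3K4me3. There H3K4me3 covered 2.00 and 3.36 kb in K27M tumours 2 and 6 and 2.56, 3.74 and 3.08 kb in WT tumours 7, 9 and 10, counted over the whole window. All of the H3K27ac and H3K4me3 at Nkx6-1 lay under H3K27me3 islands of the same tumour.

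In hindbrain neurospheres, Nkx6-1 islands covered 19.0, 20.6 and 19.8 kb in K27M and 25.6, 22.6 and 30.6 kb in WT. The mean difference was -6.47 kb, and -4.30 kb without WT replicate 3. Levels in rpm were 960.6 ± 45.7 in K27M and 565.0 ± 109.5 in WT, and the log2 fold over common regions was 1.38, or 0.47 with no composition factors. Forebrain K27M neurospheres had 26.2 kb ± 1.60 covered and 1303 ± 128 rpm. Against hindbrain K27M the region from 102071201 to 102100000 had 1510, 1487 and 1235 CPM in forebrain and 1028, 1092 and 911.4 in hindbrain. The log2 fold was 0.48 (SE 0.12, adjusted p = 0.0163). The adjusted p was 0.0639, 0.0689 and 0.0507 without forebrain replicate 1, forebrain replicate 2 or hindbrain replicate 1.

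**Figure D5:**
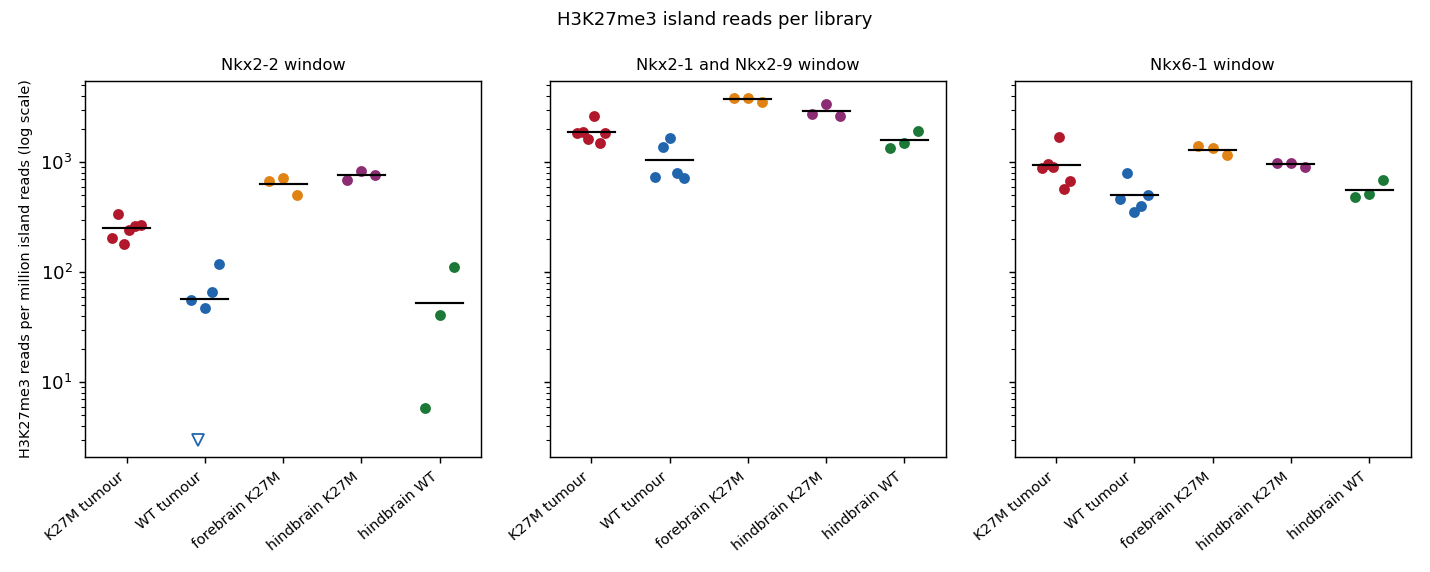
H3K27me3 level in each window in rpm, on a log scale, per library; points are libraries, lines are group means, and the open triangle at the foot marks WT tumour 8, which has no island in the Nkx2-2 window. The widest range is in the Nkx2-2 window, where hindbrain neurospheres had means of 764.0 (K27M) and 53.0 (WT), the contrast by which the gene was chosen.

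The order of groups by mean rpm was the same at Nkx2-1 and Nkx2-9 as at Nkx6-1. At Nkx2-2 it differed only in where the hindbrain groups stood. Their values chose the gene, so nothing is read from that difference. At Nkx2-2 it ran from hindbrain K27M neurospheres (764.0) and forebrain K27M (636.7), whose values overlap, through K27M tumours (250.7), which overlap with no neighbour, to WT tumours (57.5) and hindbrain WT (53.0), which overlap. At Nkx2-1 and Nkx2-9 forebrain K27M (3741) lay above all values of the next group, hindbrain K27M (2928). In CPM, forebrain lay wholly above hindbrain in 25.7% of regions, as given above. K27M tumours (1886), hindbrain WT (1583) and WT tumours (1058) followed there, each overlapping with the group before it. At Nkx6-1 forebrain K27M (1303) again lay above all values of hindbrain K27M (960.6), followed by K27M tumours (954.1), hindbrain WT (565.0) and WT tumours (503.8), each overlapping with the group before it. On the autosomal scale several of these overlaps changed, and sex differed between groups. K27M tumours lay below hindbrain K27M at Nkx2-1 and Nkx2-9 (1642 to 3101 against 4030 to 4716.5), where hindbrain WT lay above WT tumours. At Nkx6-1 K27M tumours lay above hindbrain WT (882.5 to 1721 against 695.8 to 749.5). At Nkx2-2 K27M tumours overlapped with WT tumours, while forebrain and hindbrain K27M did not overlap. The part of the sex chromosomes was not tested. In reads per kb of island, the unit in which the windows can be set side by side, hindbrain WT neurospheres had 38.2 ± 12.4 at Nkx2-2, 144.2 ± 13.7 at Nkx2-1 and Nkx2-9 and 203.5 ± 27.9 at Nkx6-1. Hindbrain K27M neurospheres had 285.5 ± 18.9, 321.2 ± 4.81 and 344.7 ± 55.1. The values at Nkx2-2 in these libraries belong to the contrast that chose the gene, so nothing is read from how they stand to the other windows.

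The regions most like each window across libraries were found by Pearson correlation of log2(rpm + 1) over the 20 H3K27me3 lists, among 14282 regions called in at least 6 of them. Each window was represented by the overlapping merged region with the most reads. On chromosome 12 such a region does not hold both sides of the chain. The libraries share depth and group, so these values are descriptions. For Nkx2-2 the 3 highest were chr4:44567001-44768800 (r = 0.88), chr5:75446001-75526600 (r = 0.87) and chr5:75538001-75573000 (r = 0.87). The first of these had mean levels of 1563 rpm in K27M tumours, 1075 in WT tumours, 2082 in forebrain K27M, 1841 in hindbrain K27M and 1342 in hindbrain WT neurospheres. For Nkx2-1 and Nkx2-9 they were chr6:51100201-51158800 (r = 0.98), chr5:108104601-108166800 (r = 0.98) and chr2:35904801-35970200 (r = 0.97). For Nkx6-1 they were chr14:69772201-69837200, chr9:99738601-99794800 and chr10:79897401-80007200, each at r = 0.93. Among the regions that represented the windows, that of Nkx2-1 and Nkx2-9 correlated with that of Nkx6-1 at 0.77 and with that of Nkx2-2 at 0.69. The regions for Nkx2-2 and Nkx6-1 correlated at 0.58.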

How the data were processed

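ChIP-seq lists of 36 of 59 samples were used; the other 23, input DNA, were not analysed here. Drosophila S2 chromatin was spiked in, per the labels' protocols; its scale factor was not used here, and values are relative within a list. Named without their roles in the submitters' processing notes are SICER 1.1, MACS2, BWA 0.7.12, bedtools 2.25.0, SAMtools, Picard and R 2.14.0, on build mm9. H3K27me3 lists hold whole read counts per island, as deposited by the authors, in the layout of SICER islands (200 bp windows, 600 bp gaps per the file names). A place with no island has no count. H3K27ac and H3K4me3 lists are narrowPeak files, whose deposited score, fold enrichment ratio, -log10 p-value and -log10 q-value are the authors' own and were used here only to rank or filter peaks. Each list came from 1 sample. H3K27me3 lists held 3208588 to 16323822 island reads. Island counts depend on what was called in each library, and neither total depth nor background is known.

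Samples were grouped by labelled genotype, tissue and ChIP antibody. Covered lengths were compared by two-sided exact permutation tests of the mean difference, adjusted by Benjamini-Hochberg over all 50 kb tiles of the genome and the windows. Islands sharing a base were merged over the libraries compared; for regions called in every library, edgeR 4.0.16 in R 4.3.3 compared the reads (TMM, quasi-likelihood test, Benjamini-Hochberg, threshold 0.05), with CPM relative to those regions. The SE of a log2 fold came from the F statistic. DESeq2 1.42.0, other filters, left-out libraries, sex and a replicate block were alternatives. Python 3.11.15, pandas 2.3.3, SciPy 1.17.1 and matplotlib 3.10.9 did the rest. The tests were tried on simulated data. The split of the chromosome 12 window, the tests within sex and the fit without WT tumour 8 were chosen after seeing the data.

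Experiment numbers, which the labels give and share across neurosphere groups, pair those libraries. For experiments 1, 2 and 3, the deviations from the group means had correlations of 0.21, 0.24 and 0.21 (forebrain with hindbrain K27M). For the hindbrain genotypes they were 0.10, -0.03 and 0.02. The members and lists were chosen with earlier results of these data known. The text names all 4 genes through their windows, whatever their values, and for each window the 3 regions whose pattern is most like it. No gene annotation of build mm9 was used here, so exons and gene bounds are not stated, and the ventral patterning genes and cell type markers that had been listed were not looked up. The tissue label of the tumours and cultures was therefore not checked against marker genes. Gene order and promoter sequences are from RefSeq, GRCm38.p6.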

Additional observations from a re-analysis of the deposited data

Results flagged for a closer look

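Of 23 groups of libraries checked, 3 held a value far from the others of its group; chance flags about 1 group in 20. K27M tumour 4 had the highest H3K27me3 level of its group in the Nkx2-1 and Nkx2-9 window, 2619 rpm with the nearest K27M tumour at 1901. With autosomal island reads alone as the scale, it had 2634 rpm there, below female K27M tumours 5 (3101) and 6 (2843). K27M tumour 4 was also highest in the Nkx6-1 window, 1711 rpm with the nearest at 972.7. On the autosomal scale these were 1721 and 1198. K27M tumour 4 had the fewest islands of the 11 tumours (13936, over 121.1 Mb). The part of that, or of the sex chromosomes, in its level was not tested. K27M tumour 6 had 1.15 kb of H3K27ac in the Nkx6-1 window, with the nearest at 0.297 kb.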

How the results depend on the processing

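At Nkx2-2, the tumour difference in H3K27me3 covered length kept its sign and an unadjusted permutation p under 0.05 in several settings. These were equal numbers of islands, a wider window, genotype permuted within sex and each tumour left out (15.3 to 20.8 kb). In females alone (18.7 kb) or males alone (20.0 kb) that p was not under 0.05, and no smaller p is possible there. All K27M tumours lay above all WT tumours. With a tumour left out or genotype permuted within sex, the p therefore stayed at or near its smallest possible value. After adjustment over the genome the main difference does not pass, and no larger one could have, as given above. At Nkx2-1 and Nkx2-9 the difference (-22.7 to -9.24 kb with a tumour left out) was 5.55 kb in females alone. At Nkx6-1, where no difference was found, it was -0.51 kb with equal numbers of islands, -5.09 kb in a window widened by 20 kb on each side and -1.10 to 1.84 kb with a tumour left out. In hindbrain neurospheres, the difference at Nkx2-1 and Nkx2-9 was -21.7 kb with equal numbers of islands and -52.0 kb in the wider window. The log2 fold at 57686601 to 57729600 on chromosome 12 was -0.088 with no composition factors. Regions called in tumours numbered 361, but 634 with DESeq2, 91 over regions of at least 3 libraries and 219 to 425 with a tumour left out (219 without K27M replicate 6, 235 without WT replicate 7). With at least 3 libraries, 2105 regions (1057 before) were called between forebrain and hindbrain and 5330 (1809 before) between hindbrain genotypes. With experiment as a replicate block, the counts over regions common to all libraries were 1280 and 1712, and among members the block changed there the call of 57600201 to 57648800 alone. Over regions of at least 3 libraries the block left 431 and 0 calls with edgeR (1733 and 1500 at an unadjusted p under 0.05), and the adjusted p between forebrain and hindbrain was 0.147 at 57600201 to 57648800, 0.0559 at 57700001 to 57727200 and 0.0404 at 102071201 to 102100000. Over the other alternatives for single regions, windows and levels, 160 values kept direction and, where there was a p, side of the threshold. A call was lost by 25 values and gained by 5, while 5 moved beyond their spread and 1 reversed. Values with no p, such as those of hindbrain neurospheres, have no threshold to keep. For the Nkx2-2 region in tumours, lost calls were counted from the fit without the WT tumour that has no island there. No p is given above for that fit, so nothing is read from those losses. Where the setting does not itself name fewer or other regions or tumours, the cause of a change was not tested. Island lists limit low values: a place without an island can hold reads.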
